A study of Mus musculus with 2 samples.

Results

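The cells described here were alveolar macrophages (AMs) with the highest RNA content of 3 genes of heme, iron and glutathione handling, *Hmox1*, *Slc40a1* and *Gclm*. For every cell that passed the quality filter, the unique molecular identifiers (UMIs) of these genes were divided by all UMIs of the cell, and the highest 5% of all cells of both libraries together were taken. Cells with *H2-Aa*, *H2-Ab1*, *H2-Eb1* and *Cd74* at 2000 UMIs or more per 1000000 UMIs were then left out. This gave 638 cells out of 13851, labelled members in the plots, of which 377 were among the 6185 filtered cells of the control library and 261 were among the 7666 of the tumor library. The measured values of the 3 genes thus chose the cells, and their levels in them are a description. All other genes are given as levels in these cells beside the other filtered cells of the same library, 5808 in the control library and 7405 in the tumor library. These other cells included every cell at or over the limit of *H2-Aa*, *H2-Ab1*, *H2-Eb1* and *Cd74*, 683 in the control and 504 in the tumor library. Among them were the 45 control and 9 tumor cells of the highest 5% that were left out.

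*Hmox1* encodes heme oxygenase 1, which opens the heme ring and releases iron, carbon monoxide and biliverdin. *Slc40a1* encodes ferroportin, the exporter through which iron leaves a macrophage, and *Gclm* encodes the modifier subunit of the ligase that makes the precursor of glutathione. All of these genes are textbook targets of NRF2 (*Nfe2l2*), a transcription factor that is degraded through KEAP1 in resting cells and escapes when electrophiles or oxidants modify KEAP1. NRF2 pairs with small MAF proteins at antioxidant response elements, where the heme-sensing repressor BACH1 competes with it. AMs clear inhaled particles, surfactant and spilled red cells from the airspace, so that they handle both heme iron and oxidants.

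Both libraries held AMs of C57BL/6 mice, labelled as postnatal week 10, that had been sorted from lung by CD45, autofluorescence, Siglec-F and F4/80. Control mice had received vehicle, and tumor-bearing mice had Lewis lung carcinoma (LLC) cells expressing tdTomato implanted into the left lung. There was 1 library per condition, and how many mice each held is not given in the sources used here. Droplet libraries were made with 10x Genomics 3′ chemistry. A gene's level is its UMIs summed over the cells, per 1000000 UMIs summed over the same cells (CPM). A ratio is the level in the chosen cells over that in the other cells, on the log2 scale. With 1 library per condition no test between conditions is possible, and condition, mouse and library cannot be told apart. Cells are not replicates, so no p-value is given, and the 95% intervals cover counting error only.

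The 3 genes of the score lie on different chromosomes of GRCm38. *Hmox1* (ENSMUSG00000005413) lies at chr8:75093621-75100589 on the forward strand with 5 exons, *Slc40a1* (ENSMUSG00000025993) at chr1:45908068-45926523 on the reverse strand with 8 exons, and *Gclm* (ENSMUSG00000028124) at chr3:122245557-122270732 on the forward strand with 7 exons. Reads of 3′ chemistry come mainly from the end of a transcript. *Gclm* is overlapped by the antisense gene *Gm17494*, which held 229 UMIs in both libraries together. It is also overlapped by *Gm6061* on its own strand, for which no value was used here.

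Since NRF2 acts through a short response element, the 250 bases before the start were searched on both strands for genes with an entry in a promoter set. The motifs were TGANTCAGC and TGACNNNGC, which are forms of the antioxidant response element. The sequence TGACTCAGC satisfies both. The windows below are from RefSeq on GRCm38.p6, written along the strand of the gene with matches in capitals. *Gclm* is shown as a gene of the score. *Prdx1*, *Srxn1* and *Txnrd1* are shown as target genes with a match whose levels stood well above those of other cells in both libraries. Only windows with a match are shown. The target genes *Abcc1*, *Slc7a11* and *Gclc*, also well above other cells in both libraries, were not among the genes with a match. *Hmox1* and *Slc40a1* had no entry in the promoter set, so that neither was searched.
Gclm, chr3:122245307-122245556, forward strand: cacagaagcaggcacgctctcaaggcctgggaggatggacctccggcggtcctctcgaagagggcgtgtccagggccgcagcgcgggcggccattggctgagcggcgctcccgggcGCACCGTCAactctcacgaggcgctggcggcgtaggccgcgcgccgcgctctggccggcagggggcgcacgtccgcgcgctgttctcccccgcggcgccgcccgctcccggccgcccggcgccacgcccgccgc
Prdx1, chr4:116685349-116685598, forward strand: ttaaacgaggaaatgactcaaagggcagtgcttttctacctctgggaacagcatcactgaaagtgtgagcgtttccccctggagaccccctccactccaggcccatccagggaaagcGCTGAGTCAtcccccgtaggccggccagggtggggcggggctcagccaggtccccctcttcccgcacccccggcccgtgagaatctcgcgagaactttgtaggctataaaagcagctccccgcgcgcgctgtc
Srxn1, chr2:152105274-152105523, forward strand: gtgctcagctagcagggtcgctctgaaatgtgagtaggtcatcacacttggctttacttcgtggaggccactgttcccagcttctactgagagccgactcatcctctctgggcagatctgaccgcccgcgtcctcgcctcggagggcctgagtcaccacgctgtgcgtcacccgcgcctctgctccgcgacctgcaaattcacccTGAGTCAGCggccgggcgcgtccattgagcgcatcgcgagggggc
Txnrd1, chr10:82858956-82859205, forward strand: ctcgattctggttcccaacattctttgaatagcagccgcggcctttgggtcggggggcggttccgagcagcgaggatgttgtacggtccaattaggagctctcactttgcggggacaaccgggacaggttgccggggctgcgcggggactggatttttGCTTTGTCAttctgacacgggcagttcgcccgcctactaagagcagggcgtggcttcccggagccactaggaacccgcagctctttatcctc

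The *Srxn1* match lay on the forward strand, 45 to 37 bases before the start, and those of *Prdx1*, *Gclm* and *Txnrd1* lay on the reverse strand, beginning 133, 134 and 92 bases before it. The *Prdx1* match satisfied both motifs. TGANTCAGC was present in 1.02% of all 32851 promoter windows. The other shares count genes, where a match in any window of a gene sufficed, so they are not the same measure. By gene, TGANTCAGC was present for 1.20% of the 4413 genes tested below that had an entry. It was present for 5 of the 25 genes with an entry in a list of NRF2 target genes, namely *Gstp1*, *Osgin1*, *Pir*, *Prdx1* and *Srxn1*. TGACNNNGC was found in 10.2% of all windows and, by gene, for 14.8% of the tested genes with an entry and for 6 of the 25. A match of letters is a description and not a binding site.

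The score had a long upper tail. Over all filtered cells its median was 743 CPM, its 90th percentile 2584, its 99th 7637 and its highest value 22744. The lowest scores taken were 3489.39, 3494.98 and 3496.50 CPM and the highest scores left out were 3489.27, 3473.73 and 3472.22, so that the limit fell within a continuous range and not at a gap. Of the 692 cells at or over the limit, 45 control and 9 tumor cells were removed for their MHC class II genes. The cells made up 6.10% (5.51 to 6.72) of the control library and 3.40% (3.01 to 3.84) of the tumor library. With the highest 2.5% taken the shares were 2.52% and 2.17%, so that the gap between the libraries depended on the limit. All of these shares rest on 1 limit for both libraries, since a limit set within each library would fix them in advance.

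**Figure D1:**
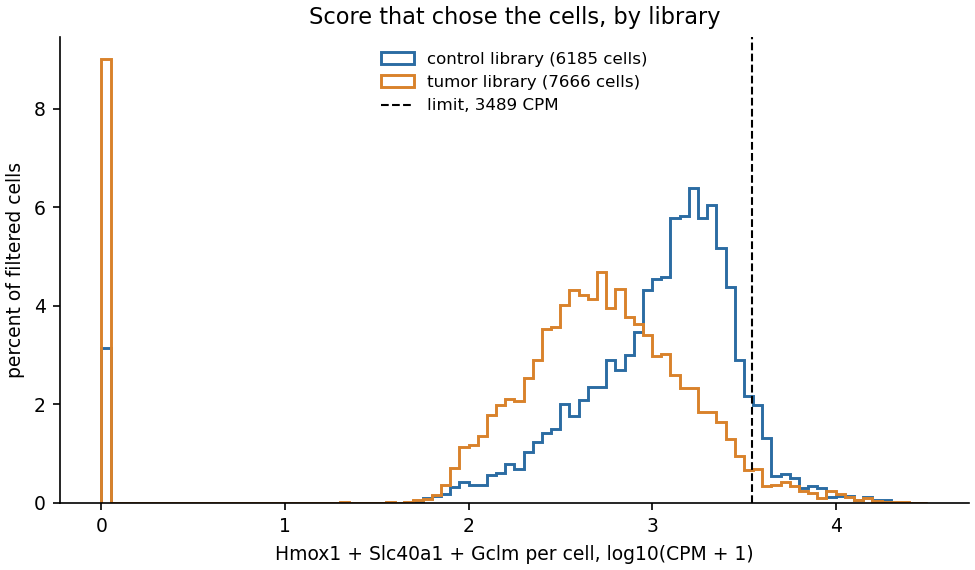
Histogram of the score that chose the cells, *Hmox1*, *Slc40a1* and *Gclm* together, as log10 of CPM plus 1 per cell (x axis), against the percent of filtered cells of each library (y axis), with the limit of 3489 CPM dashed. The bulk of the control cells lies at higher scores than the bulk of the tumor cells, with medians of 1286 and 484 CPM, while both libraries have a tail past the limit.

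*Hmox1* made up most of the score. Its level was 5009 CPM in the chosen cells of the control library against 1121 in the other cells, and 6397 against 528 in the tumor library. *Slc40a1* stood at 189 against 23.4 CPM in the control and 102 against 13.0 in the tumor library. *Gclm* stood at 665 against 139 and at 501 against 126 CPM. Per chosen cell, the median of *Slc40a1* was 84.3 CPM in the control and 0 in the tumor library, and that of *Gclm* was 430 and 361. *Hmox1* UMIs made up 85.4% of the score's UMIs in control cells and 91.4% in tumor cells, and in 636 of the 638 cells *Hmox1* had more UMIs than either of the other genes. *Slc40a1* led in 1 cell and *Gclm* in 1. The choice of cells therefore rested almost wholly on *Hmox1*.

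Each chosen cell held a median of 42 UMIs of these genes in the control library (3 to 323) and 44 in the tumor library (4 to 311), and 11 and 6 cells were chosen on 5 UMIs or fewer. The cells were somewhat shallower than the rest, with a median of 8975 UMIs against 10440.5 in the control library and 8101 against 8273 in the tumor library. In the control library 9.85% of the cells in the lowest of 10 equal groups by UMIs were chosen, against 4.85% in the highest. The median share of mitochondrial UMIs was 2.45% against 2.71% in the control and 2.38% against 2.48% in the tumor library.

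The cells carried the markers of AMs. Each of the 377 and 261 cells held the 15 AM markers, such as *Chil3*, *Mrc1*, *Lpl* and *Plet1*, at more than 1000 CPM in sum, as did 99.8% of the other control and 99.5% of the other tumor cells. The summed level was 19470 CPM against 21669 in other control cells and 19214 against 18451 in other tumor cells. In the control library 12 of the 15 were lower and 3 higher than in other cells, and in the tumor library 7 were lower and 8 higher. All 5454 genes tested below had median log2 ratios of −0.05 in the control and −0.02 in the tumor library, so that most of them were lower too. For so short a list these counts say little. Among the markers lower in both libraries was *Siglecf*, the lectin of the sorting gate, at 95.8 against 139 CPM in the control and 94.3 against 102 in the tumor library. Another of them was the ribonuclease gene *Ear2*, at 843 against 1170 and 637 against 801 CPM. The carbonic anhydrase *Car4* was lower in the control library, 138 against 258 CPM, and higher in the tumor library, 238 against 144.

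Markers of other cells were scarce. Of 7 erythroid markers 1 had a UMI in control cells (*Hba-a1*, 1 UMI) and 2 in tumor cells, while *Alas2* and *Slc4a1* were at 0 in both. Epithelial markers summed to 94.1 against 136 CPM in the control and 59.7 against 44.98 in the tumor library, T, NK and B cell markers to 1.13 against 9.38 and 1.32 against 3.10, and fibroblast and endothelial markers to 3.39 against 6.57 and 3.51 against 37.8. Markers of interstitial or monocyte-derived macrophages summed to 59.6 against 53.5 CPM in the control library, with *C1qa*, *C1qb*, *C1qc*, *Cx3cr1* and *Ly6c2* at 0, and to 421 against 733 in the tumor library, with *Folr2*, *Lyve1* and *Ly6c2* at 0. Neutrophil and dendritic cell markers summed to 96.7 and 13.3 CPM in the control cells and to 132 and 8.77 in the tumor cells, each below the other cells of that library, with *S100a9*, *Ly6g*, *Camp*, *Flt3* and *Zbtb46* at 0. What part these cells or their RNA had in the results below was not tested.

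Of 8 markers of the iron-recycling macrophages of the splenic red pulp, *Cd163*, *Vsig4* and *Timd4* were at 0 in the chosen cells of both libraries. The sum of the 8 was nevertheless higher than in other cells, 125 against 30.8 CPM in the control and 47.4 against 24.8 in the tumor library, and most of it came from *Treml4*. *Spic*, the heme-induced transcription factor of red pulp macrophages, had 21 UMIs in the 377 control cells against 6 UMIs in the 5808 others, 5.94 against 0.10 CPM, and 5 UMIs against 60 in the tumor library, 2.19 against 0.90 CPM. The log2 ratio was 5.92 (4.57 to 7.52) in the control library, and in the tumor library it was 1.28 (−0.39 to 2.58), with a counting interval that includes 0. *Spic* was singled out after its values were seen.

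To ask whether the 3 genes were high in the same cells, each was left out in turn and the cells were chosen again from the other two. Among 369 control cells chosen by *Slc40a1* and *Gclm* alone, *Hmox1* was at 3754 CPM against 1186, a log2 ratio of 1.66 (1.64 to 1.69), and among 287 tumor cells it was at 4080 against 609, a log2 ratio of 2.75 (2.71 to 2.78). *Slc40a1*, left out, was at 166 against 24.8 CPM in the control and 96.1 against 13.2 in the tumor library, log2 ratios of 2.74 (2.60 to 2.88) and 2.86 (2.64 to 3.08). *Gclm*, left out, was at 606 against 144 and at 474 against 126 CPM, log2 ratios of 2.07 (2.003 to 2.14) and 1.91 (1.82 to 2.0001). In every one of these choices the gene that was not used was more than 1.5-fold higher in both libraries.

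With marker lists of cell types left aside, the list of NRF2 target genes had the highest median ratio in both libraries. A list of 30 such genes, without those of the score, held 21 with at least 20 CPM over the filtered cells of each library. Of these 21, 20 were above 0 on the log2 scale in both libraries, against 25.4% of all genes tested, and 11 were at least 1.5-fold higher in both, and the median log2 ratio was 0.94 in the control and 0.77 in the tumor library. Among all 5454 genes that passed the same filter, 34 or 0.623% were at least 1.5-fold higher in both, and the median log2 ratios were −0.05 and −0.02. Summed over the 30, the level was 17350 CPM against 8744 in the control library and 14887 against 9030 in the tumor library. On the log2 scale these sums gave 0.99 and 0.72, below the metallothionein list at 1.26 and 0.93 and the red pulp markers at 2.02 and 0.93.

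*Srxn1*, which had the largest ratio of the 21 target genes at the limit in both libraries, encodes the sulfiredoxin that repairs overoxidized peroxiredoxins. It stood at 189 CPM against 50.8 in the control and 183 against 62.3 in the tumor library, log2 ratios of 1.90 (1.77 to 2.02) and 1.55 (1.41 to 1.70). *Prdx1*, a peroxiredoxin, was at 6067 against 2172 and 4813 against 2150 CPM, 1.48 (1.46 to 1.503) and 1.16 (1.13 to 1.19) on the log2 scale. *Txnrd1*, the cytosolic thioredoxin reductase, was at 715 against 271 and 568 against 291 CPM. Its own substrate gene *Txn1* differed less, 2663 against 2032 and 2491 against 1944 CPM. Catalase (*Cat*) was at 328 against 119 CPM in the control and 251 against 143 in the tumor library. *Sod1* was at 125 against 91.8 and 154 against 117 CPM, so that it did not reach 1.5-fold in either library.

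Of the target genes that serve the supply or use of glutathione, some passed the limit in both libraries and others did not. *Slc7a11*, the cystine importer, was at 618 CPM against 181 in the control and 440 against 208 in the tumor library, and *Gclc*, the catalytic subunit of the ligase that *Gclm* modifies, was at 190 against 83.9 and 157 against 73.4. *Abcc1*, an exporter of glutathione conjugates, was at 153 against 45.4 and 122 against 47.9 CPM. *Esd*, an esterase that acts on a formaldehyde adduct of glutathione, was at 687 against 239 and 604 against 344 CPM. The transferase *Gstm1* passed the limit only in the control library, at 921 against 410 CPM, beside 775 against 582 in the tumor library. The microsomal transferase *Mgst1* was the member of the 21 nearest to the other cells, at 407 against 373 CPM and 281 against 297.

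Among enzymes that supply NADPH, *Pgd* and *G6pdx*, of the oxidative pentose phosphate pathway, had log2 ratios of 0.87 and 0.67 in the control and 0.77 and 0.80 in the tumor library, whereas *Tkt* and *Taldo1*, of its nonoxidative arm, stood at 0.32 and 0.47 in the control and 0.29 and 0.28 in the tumor library. *Sqstm1*, the autophagy receptor p62 that binds KEAP1, was at 851 CPM against 445 and 887 against 467. The quinone reductase *Nqo1* and the malic enzyme *Me1*, which lay below the 20 CPM limit and were singled out after their values were seen, were at 18.1 against 3.001 and 31.7 against 5.77 CPM in the control library and at 12.7 against 3.25 and 25.004 against 6.34 in the tumor library.

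**Figure D2:**
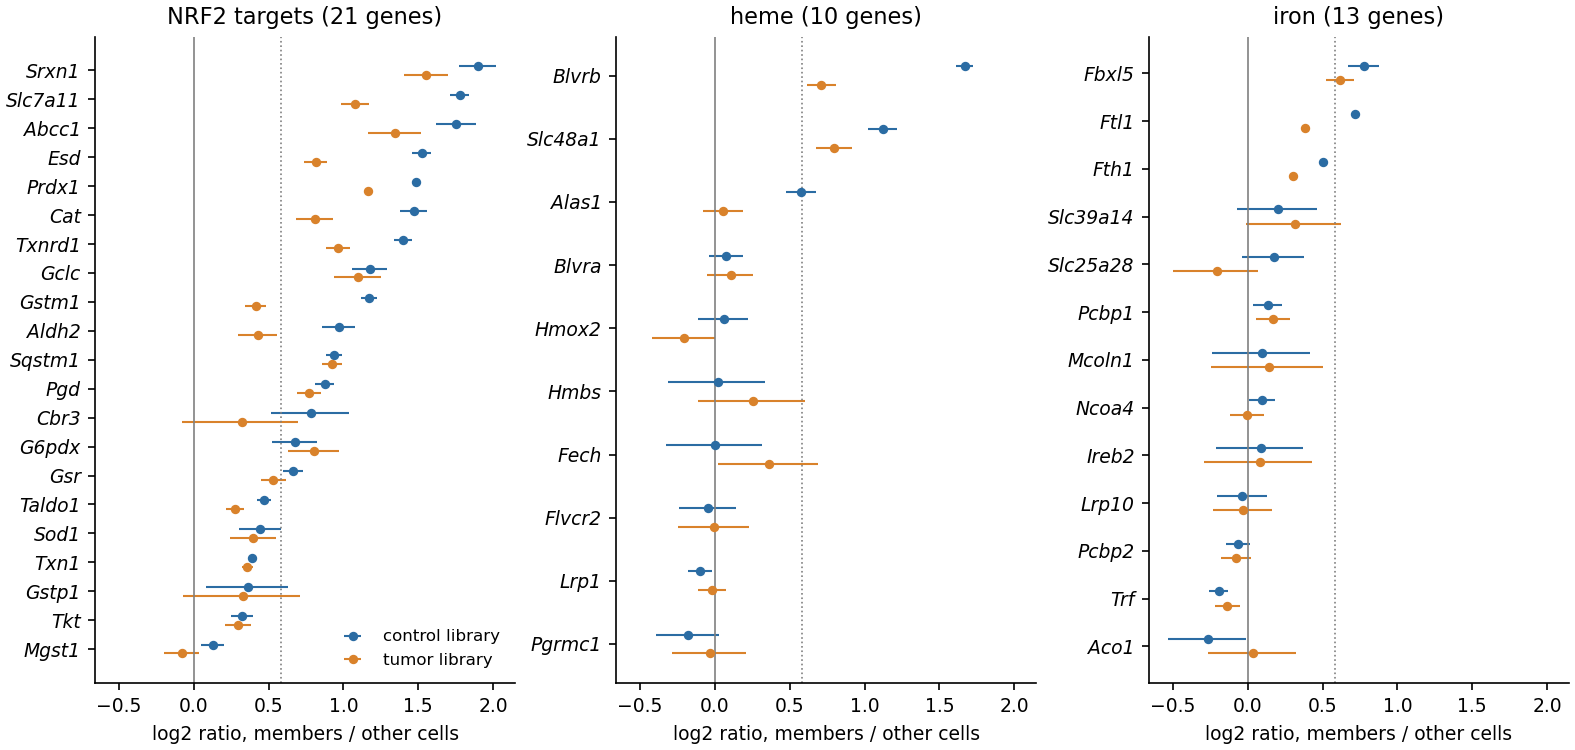
Log2 ratio of the chosen cells over the other cells of the same library (x axis) for the genes of the NRF2 target, heme and iron lists with at least 20 CPM in each library, with 95% counting intervals, blue for the control and orange for the tumor library; the dotted line marks 1.5-fold. Most NRF2 targets lie to the right of 0 in both libraries, whereas in the heme list only *Blvrb* and *Slc48a1* and in the iron list only *Fbxl5* pass the dotted line in both.

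At the RNA level the regulators of the pathway differed less than its targets. None of 10 regulators above the limit of 20 CPM was 1.5-fold higher in both libraries, against 0.623% of all genes tested. For so short a list this count says little. Their median log2 ratios were 0.13 and 0.10, against 0.94 and 0.77 for the targets. *Nfe2l2*, which encodes NRF2 itself, was at 270 CPM against 263 in the control and 293 against 283 in the tumor library. *Mafg*, a small MAF partner, had the largest ratio, 0.75 (0.61 to 0.88) in the control and 0.45 (0.27 to 0.63) in the tumor library. *Bach1* was at 223 against 154 CPM and 206 against 155, log2 ratios of 0.54 and 0.41. The ratios of *Mafg* and *Bach1* lay above the 95th percentile of all genes tested, 0.35 in the control and 0.34 in the tumor library. *Keap1* was at 58.2 against 41.1 CPM in the control library and at 46.1 against 46.5 in the tumor library.

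In the handling of heme, *Slc48a1* and *Blvrb* stood out from the other genes of the list. *Slc48a1*, which carries heme out of the phagolysosome, was at 271 CPM against 125 in the control and 268 against 155 in the tumor library, log2 ratios of 1.12 (1.02 to 1.22) and 0.80 (0.68 to 0.91). *Blvrb*, one of the biliverdin reductases, was at 824 against 259 CPM and at 407 against 248, log2 ratios of 1.67 (1.61 to 1.73) and 0.71 (0.61 to 0.81). These were the genes of the heme list past 1.5-fold in both libraries, 2 of the 10 above the limit of 20 CPM. Of all genes tested 0.623% were past it, and the median of the 10 was 0.04 and 0.08. *Blvra*, the other biliverdin reductase gene, was at 187 against 177 and 159 against 148 CPM. *Hmox2*, the constitutive heme oxygenase, was at 87.9 against 84.4 and 84.7 against 97.5 CPM. *Alas1*, the entry enzyme of heme synthesis, was at 258 against 173 CPM in the control library and at 204 against 197 in the tumor library.

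Iron genes other than ferroportin showed smaller differences. Of 27 iron genes 13 passed the limit of 20 CPM, and their median log2 ratio was 0.10 in the control and 0.08 in the tumor library. Of these 13, 1 was 1.5-fold higher in both libraries, against 0.623% of all genes tested. That gene was *Fbxl5*, the iron-sensing ubiquitin ligase subunit, at 250 against 146 and 418 against 272 CPM. The ferritin chains were higher in both libraries without passing the limit in both: *Ftl1* was at 24330 against 14827 CPM in the control and 23719 against 18203 in the tumor library, and *Fth1* at 28593 against 20226 and 30497 against 24757. The cargo receptor for ferritin, *Ncoa4*, was at 326 against 306 and 299 against 300 CPM. The transferrin receptor *Tfrc* had 10 UMIs in the chosen and 277 in the other control cells, 2.83 against 4.52 CPM, and 17 against 355 in the tumor library, 7.46 against 5.34 CPM. Both log2 ratios, −0.68 (−1.75 to 0.22) and 0.48 (−0.31 to 1.18), had counting intervals that include 0. *Slc11a1*, the phagosomal metal transporter, was at 38.2 against 5.01 CPM in the control and 26.3 against 18.8 in the tumor library. It lay below the limit and was singled out after its values were seen.

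Metallothioneins, which bind zinc and copper, were higher as well. *Mt1* was at 5623 CPM against 2232 in the control and 3666 against 1847 in the tumor library, and *Mt2* at 655 against 265 and 678 against 334. Both passed the limit in both libraries, although with *Hmox1* left out of the score the *Mt2* ratio nearer to 0 was 0.55, below 1.5-fold, and the metal-sensing factor *Mtf1* was at 52.6 against 52.4 and 44.7 against 40.6 CPM. The zinc exporter *Slc30a1* had log2 ratios of 0.14 and 0.46.

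Of the 34 genes past 1.5-fold in both libraries, 11 were in the NRF2 target list and 17 were in a pathway list, marker lists of cell types left aside. By the ratio nearer to 0 the highest, *Ptgr1* and *Akr1b8*, were outside the pathway lists as drawn up here. This says nothing on whether NRF2 regulates them. With the highest 10% taken, that ratio fell to 1.04 for *Ptgr1*, below *Srxn1* at 1.37, and was 1.53 for *Akr1b8*. *Ptgr1*, prostaglandin reductase 1, which also reduces reactive aldehydes, was at 76.6 CPM against 21.5 in the control and 119 against 32.8 in the tumor library, log2 ratios of 1.83 (1.64 to 2.02) and 1.86 (1.67 to 2.04). *Akr1b8*, an aldo-keto reductase, was at 98.1 against 22.1 and 75.01 against 21.3 CPM, 2.15 (1.98 to 2.32) and 1.82 (1.58 to 2.05) on the log2 scale. Both enzymes act on reactive aldehydes. *Treml4*, a receptor that binds dead cells and is in the list of red pulp macrophage markers, was at 117 against 29.9 CPM and 43.0 against 19.5. *Plpp3*, a lipid phosphate phosphatase, was at 110 against 41.1 and 184 against 82.7 CPM. *Cyb5a*, cytochrome b5, was at 1008 against 483 and 809 against 431 CPM, and *Lrp8*, a lipoprotein receptor, at 56.0 against 25.3 and 39.9 against 21.1.

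Further genes of this group served reduction, uptake and sensing. *Por*, the reductase that passes electrons to cytochromes P450 and to heme oxygenase, had log2 ratios of 0.97 and 0.65, and the short-chain dehydrogenase family gene *Htatip2* 1.24 and 0.70. *Clec4n*, a lectin receptor for fungal mannans, had 0.86 and 0.97, the prostacyclin receptor *Ptgir* 0.998 and 0.69, and the scavenger receptor *Cd36* 0.65 and 0.67. All 34 were still past the limit when the other cells were weighted to the same depths as the chosen cells. Of the 26 of these genes with a promoter entry, 5 had TGANTCAGC in a window and 9 had TGACNNNGC. Of all tested genes with an entry, 1.2% and 14.8% had them.

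**Figure D3:**
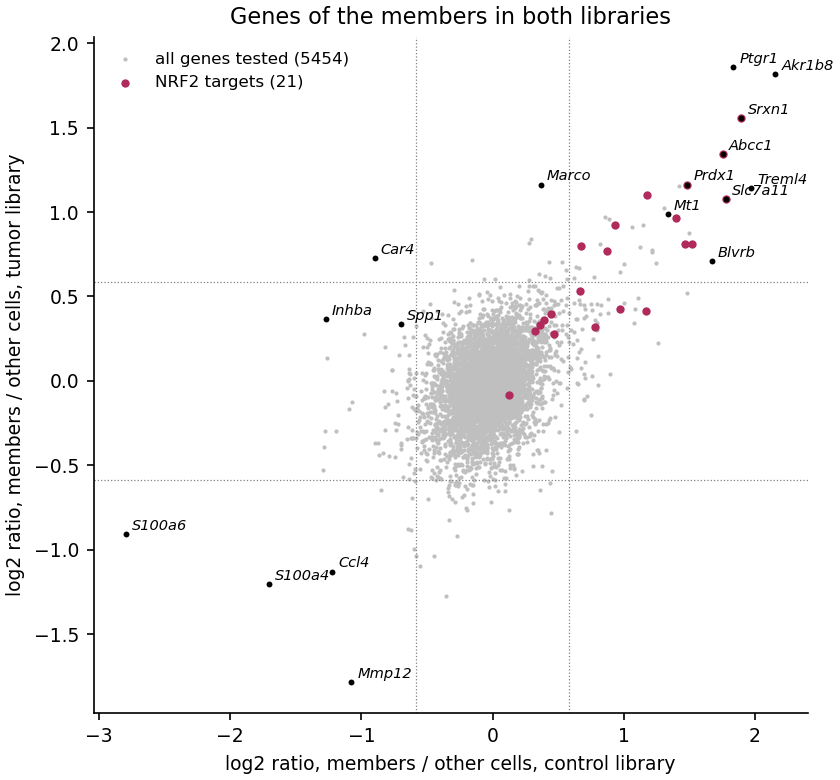
Log2 ratio of the chosen cells over the other cells in the control library (x axis) and in the tumor library (y axis) for the 5454 genes tested, with 21 NRF2 target genes in purple, selected genes named and 1.5-fold marked by dotted lines. NRF2 targets lie mainly in the upper right, *S100a6*, *S100a4*, *Ccl4* and *Mmp12* lie in the lower left, and *Inhba*, *Spp1* and *Car4* lie on opposite sides of 0 in the libraries.

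Of the 5454 genes tested, 11 or 0.202% were at least 1.5-fold lower in both libraries, against 34 higher, and with a limit of 5 CPM in place of 20 the counts turned to 63 lower and 49 higher. Of the 11, 9 were so after weighting for depth. *S100a6*, a calcium-binding protein gene, was at 7.91 CPM against 54.9 in the control and 313 against 587 in the tumor library, and its relative *S100a4* at 7.35 against 23.9 and 71.1 against 164. The chemokine gene *Ccl4* was at 14.4 against 33.7 and 45.6 against 99.9 CPM. The macrophage elastase *Mmp12* was at 60.2 against 127 and 17.6 against 60.5 CPM. *Klf2*, a transcription factor, was at 92.2 against 166 and 156 against 245 CPM, and *Mfge8*, a bridge between phagocytes and dying cells, at 43.8 against 66.3 and 53.1 against 106. The other five were *Il1rl2*, *Afdn*, *Pdcd4*, *Hes6* and *Jarid2*. Without the cells that held *Apoe* and *S100a6* at 500 CPM or more in sum, 3.18% of the chosen and 4.72% of the other control cells and 21.8% and 40.0% of the tumor cells, the ratio was −0.78 and −0.60 for *S100a4* and −0.93 and −1.05 for *Mmp12*, and −1.26 and −0.41 for *S100a6*, which that step itself limits. When the cells were chosen after thinning to 3800 UMIs each, the ratio nearer to 0 was −0.25 for *Mmp12*, −0.15 for *Mfge8*, −0.54 for *Klf2*, −0.56 for *Afdn*, −0.51 for *Pdcd4* and −0.49 for *Hes6*, all short of the limit. With the highest 10% taken, 7 of the 11 fell short, at −0.57 for *Ccl4*, −0.27 for *Klf2*, −0.35 for *Il1rl2*, −0.24 for *Afdn*, −0.23 for *Pdcd4*, −0.43 for *Hes6* and −0.20 for *Jarid2*. With *Hmox1* left out of the score it was −0.04 for *Klf2*, −0.07 for *Afdn*, −0.39 for *Ccl4*, −0.26 for *Mfge8*, −0.30 for *Pdcd4*, −0.16 for *Hes6* and −0.49 for *Jarid2*, none of which passed the limit, while *S100a4*, *Mmp12*, *S100a6* and *Il1rl2* still did. Under these 3 settings *S100a4* and *S100a6* passed the limit each time.

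Other stress and metabolic programs had median ratios nearer to those of all genes than the NRF2 targets had. In the lists of glutathione peroxidases and ferroptosis, ATF4 and unfolded protein, lysosome, hypoxia and heat shock, no gene was 1.5-fold higher in both libraries. Over all 5454 genes tested 0.623% were, so that finding none in lists this short says little. In the ferroptosis list *Gpx4* was at 723 against 683 and 703 against 694 CPM, and *Slc3a2*, the partner chain of *Slc7a11*, at 350 against 261 and 284 against 227. The stress factor *Atf4* was at 242 against 199 and 188 against 167 CPM, while its target *Ddit3* was at 25.2 against 25.3 and 28.1 against 33.1. Of 9 hypoxia and glycolysis genes above the limit of 20 CPM, 7 were above 0 in both libraries, among them *Hif1a* with log2 ratios of 0.49 and 0.55 and *Pkm* with 0.59 and 0.40. The same held for 8 of 11 heat shock genes and for 25.4% of all 5454 genes tested. *Gdf15*, a stress cytokine, had 0.53 and 0.56.

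Of 17 immediate early genes 1, *Klf2*, was at least 1.5-fold lower in both libraries, against 0.202% of all 5454 genes tested. Below 0 in both libraries were 13 of the 17, against 37.4% of all genes tested, with median log2 ratios of −0.20 and −0.20. *Fos* was at 506 against 707 CPM in the control and 1006 against 1269 in the tumor library. Interferon response genes stood at 1050 against 1702 CPM in sum in the tumor library and at 458 against 461 in the control library. *Il1b* was at 91.3 against 138 and 613 against 690 CPM. *Tnf* was at 83.1 against 87.2 CPM in the control and 119 against 78.6 in the tumor library, and the chemokine gene *Cxcl1* at 19.2 against 26.7 and 120 against 73.8. Of 8 cell cycle genes none was 1.5-fold lower in both libraries, against 0.202% of all genes tested, so that this count says little. Their median log2 ratio was −0.64 in the control and −0.02 in the tumor library. The proliferation marker *Mki67* was at 27.7 against 67.5 CPM in the control library and 22.8 against 29.97 in the tumor library, and *Top2a* at 23.5 against 56.9 and 21.1 against 25.9.

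Within the group the NRF2 target genes varied widely from cell to cell. Their summed level per cell had a median of 12565 CPM in the control cells, with a 10th percentile of 7288 and a 90th of 29089, and of 12942 in the tumor cells, with 8639 and 19988. Of the control cells 204 (54.1%) and of the tumor cells 152 (58.2%) lay above the 90th percentile of the other cells of their library, at 11960 and 12104 CPM. At the other end 54 control cells (14.3%) and 21 tumor cells (8.05%) lay below the median of the other cells. These low cells were shallow, with medians of 3519 and 5352 UMIs per cell, so that their sums rest on few counts.

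The level of NRF2 targets was highest in the cells of highest score within the group. When the cells of each library were divided by score into 4 groups of nearly equal size, the summed level was 13021, 12559, 17728 and 24541 CPM from the lowest to the highest group in the control library and 11835, 13434, 15587 and 17755 in the tumor library. The control sum thus did not rise between the lowest group and the next. Median depth differed as well, at 8974, 7887.5, 8540.5 and 11012 UMIs in the control groups and 6770.5, 6881, 9079 and 9350 in the tumor groups. What part depth had in these levels was not tested. *Blvrb* went from 556 to 1311 CPM between the lowest and highest control groups and from 336 to 464 between the tumor groups. *Ftl1* went from 20505 to 31514 CPM in the control and from 21420 to 25194 in the tumor library. *Nfe2l2* stood at 265, 263, 269 and 280 CPM from the lowest to the highest control group and at 336, 322, 249 and 283 in the tumor groups. *Mt1* went from 3332 to 8242 CPM in the control groups but from 4157 to 3674 in the tumor groups.

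All filtered cells with at least 3800 UMIs were also ordered by *Hmox1* alone and divided into 10 groups per library. *Hmox1* itself, which set the order, climbed through all of them, with its own largest step into the last group. The step into the last group was larger than any before it for *Gclm*, *Slc40a1* and the NRF2 targets, although in the tumor library the NRF2 targets had gained more over the groups before it than in that step. In the control library *Gclm* was at 95.6 CPM in the lowest group, 195 in the ninth and 472 in the tenth, and *Slc40a1* at 17.5, 37.4 and 124. The NRF2 targets summed to 7865, 9742 and 14463 CPM in the same groups. In the tumor library *Gclm* was at 95.4, 159 and 296 CPM, *Slc40a1* at 7.0, 26.8 and 50.5, and the NRF2 targets at 7827, 10187 and 12218. *Hmox1* went from 2307 CPM in the ninth to 4321 in the tenth control group and from 1298 to 3757 in the tumor library. The groups were therefore not evenly spaced in *Hmox1*. *Actb* was at 11018 CPM in the lowest and 9832 in the tenth control group, and at 9802 and 10571 in those of the tumor library.

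**Figure D4:**
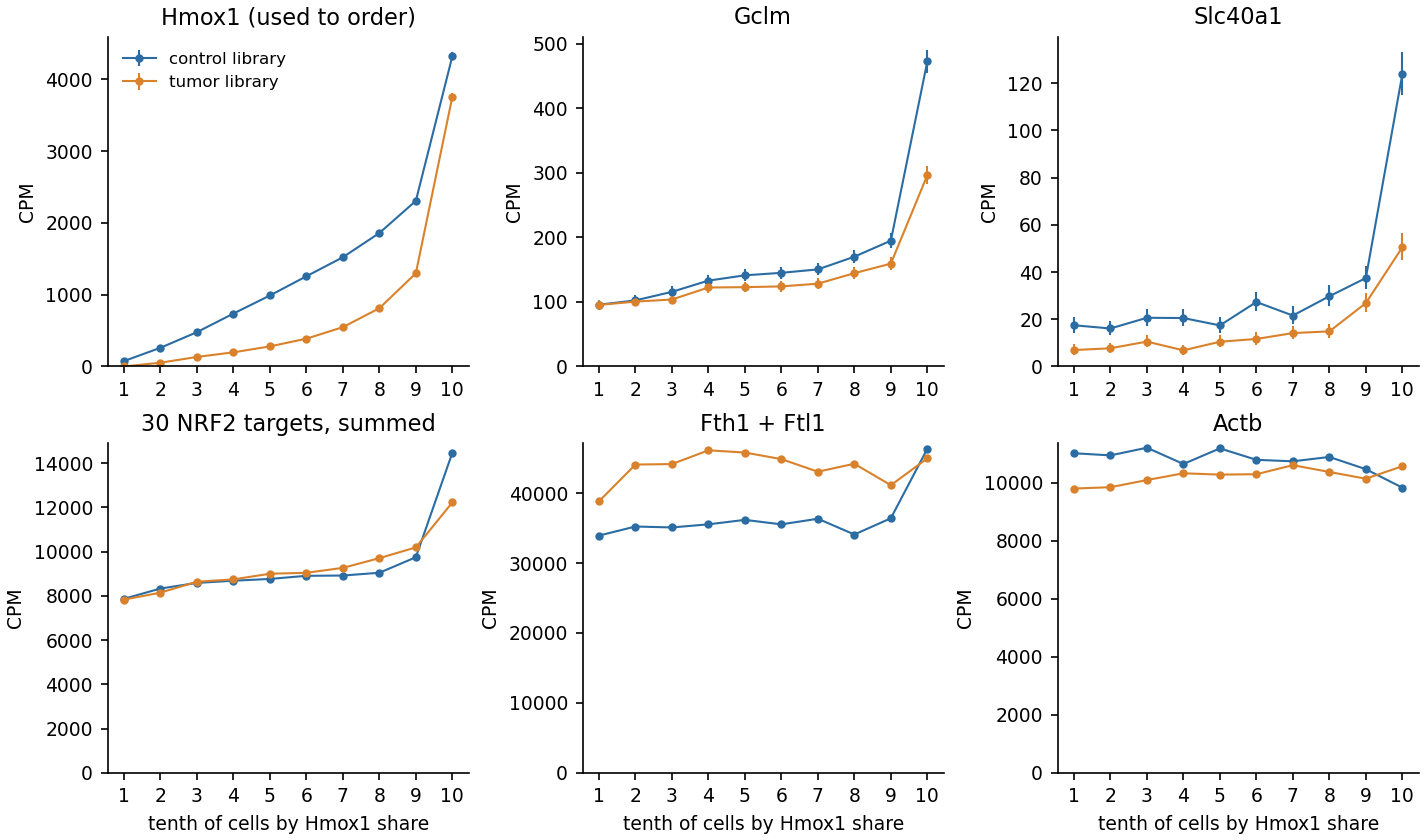
Levels in CPM (y axes) over 10 groups of cells ordered by the *Hmox1* share of each cell (x axes), in the control library (blue) and the tumor library (orange), with 95% counting intervals where they are larger than the points. *Gclm* lies between 95.4 and 195 CPM in all groups but the last and at 472 and 296 in the last, and *Actb* shows no such step.

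The chosen cells of the tumor library were compared with those of the control library. Of 5458 genes, 55 or 1.01% were at least 2-fold higher and 18 or 0.33% at least 2-fold lower in the tumor cells. Among the other cells of the libraries 61 genes (1.12%) were higher and 19 (0.348%) lower. The genes highest in the tumor cells were *S100a6*, *Apoe*, *Inhba*, *S100a4*, *Ifi27l2a*, *Spp1*, *Pdpn*, *Il1b*, *Cxcl1* and *Fn1*. *Apoe*, the lipid carrier, was at 355 CPM in the tumor against 34.2 in the control cells, and *Spp1*, osteopontin, at 3077 against 357. In the other cells *Apoe* was at 611 against 25.1 and *Spp1* at 2438 against 579 CPM. Lowest in the tumor cells were *Mmp12*, *H2-Eb1*, *Syne2*, *Fabp1*, *Treml4*, *Casp8ap2*, *Ppp1r10*, *Wfdc10*, *Htr2c* and *Syne1*, where *H2-Eb1* was used to choose the cells. *Fabp1*, a fatty acid carrier of AMs, was at 133 against 366 CPM in the chosen cells and at 130 against 524 in the others.

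For the score genes, which chose the cells, *Hmox1* alone differed in direction between the kinds of cell. In the other cells *Hmox1* was at 528 CPM in the tumor against 1121 in the control library, while in the chosen cells it was at 6397 against 5009. *Slc40a1* and *Gclm* were lower in the tumor library in both kinds of cell. Of the 21 NRF2 targets, 16 were lower and 5 higher in the tumor than in the control library within the chosen cells, with a median log2 difference of −0.25, and in the other cells 7 were lower and 14 higher, with a median of 0.10. Summed per cell, however, the 30 targets had a slightly higher median in the tumor cells, as given above. Of all 5458 genes, 2731 were lower and 2727 higher in the tumor library within the chosen cells, and 54.2% were lower and 45.8% higher in the other cells. Of the 10 heme genes 6 were lower and 4 higher in the chosen cells, near the even split of all genes. As examples, *Prdx1* was at 4813 against 6067 CPM, *Slc7a11* at 440 against 618, *Blvrb* at 407 against 824, *Slc48a1* at 268 against 271 and *Sqstm1* at 887 against 851. In the other cells *Prdx1* stood at 2150 against 2172 and *Blvrb* at 248 against 259.

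*Inhba*, which encodes the activin A subunit that the study follows, had opposite positions in the libraries. It was at 19.5 CPM against 47.1 in the other cells of the control library, a log2 ratio of −1.27 (−1.64 to −0.93), and at 189 against 147 in the tumor library, a ratio of 0.37 (0.22 to 0.51). *Spp1* was at 357 against 579 and 3077 against 2438 CPM. The carbonic anhydrase *Car4*, an AM marker, was at 138 against 258 CPM in the control and 238 against 144 in the tumor library. *Marco*, a scavenger receptor for particles, was higher in both, 742 against 576 and 444 against 199 CPM, log2 ratios of 0.37 (0.31 to 0.42) and 1.16 (1.07 to 1.25). The cell surface gene *Cd63* was at 525 against 412 and 747 against 808 CPM. Whether any of these differences varied between conditions was not tested.

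**Figure D5:**
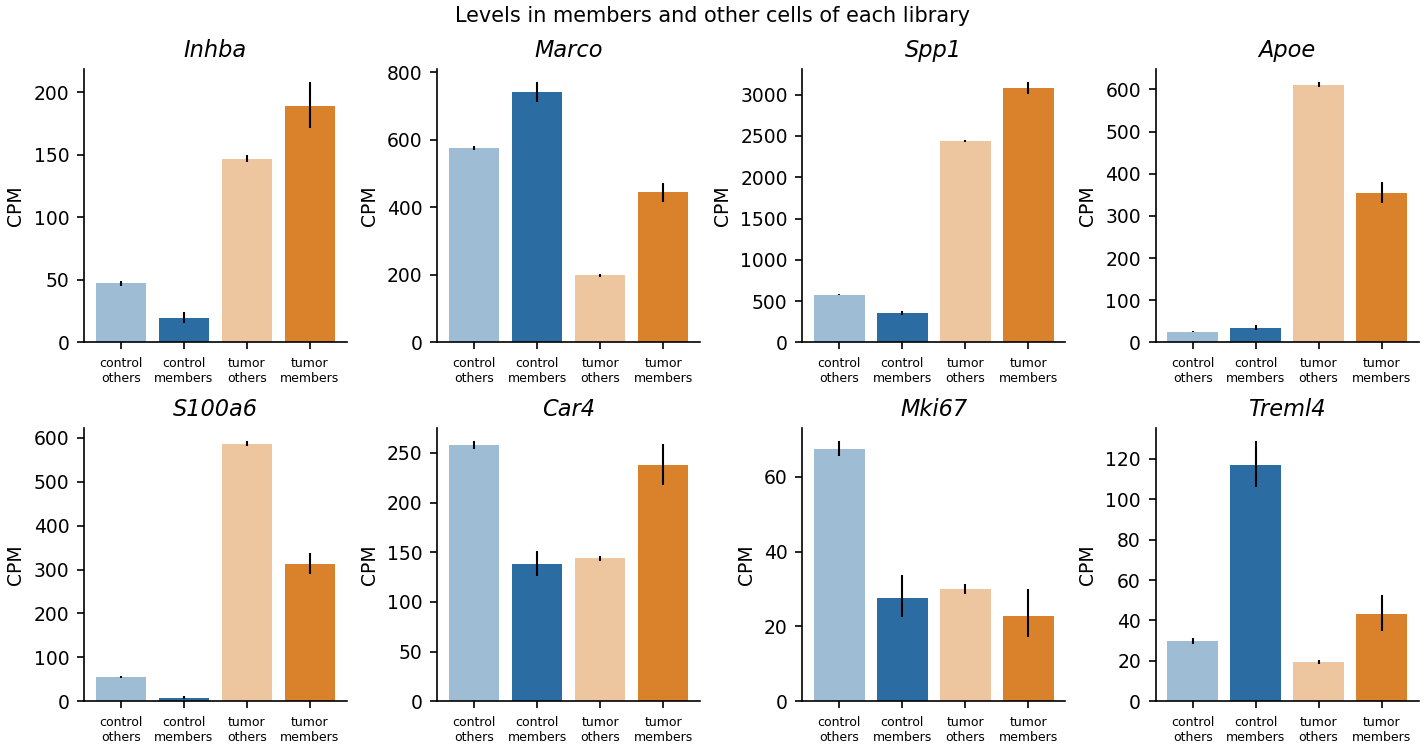
Levels in CPM (y axes, from 0) of 8 genes in the other cells (pale bars) and the chosen cells (full bars) of the control (blue) and tumor (orange) libraries, with 95% counting intervals. *Marco* and *Treml4* are higher in the chosen cells of both libraries, *S100a6* lies lower in them, *Mki67* lies lower with intervals that overlap in the tumor library, and *Inhba* is lower in the control (19.5 against 47.1) but higher in the tumor library (189 against 147).

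The overlap with other programs was counted, each program taken as the highest 5% of all filtered cells by its own genes. Cells high in *Apoe* and *S100a6* made up 0 of 377 control cells (up to 0.974%) against 0.551% of the other control cells, and 15 of 261 tumor cells, 5.75% (3.25 to 9.30) against 8.71% of the other tumor cells. Cells high in *Inhba* made up 29 of the tumor cells, 11.1% (7.57 to 15.6) against 7.45% of the others, and cells high in *Spp1* 30 of them, 11.5% (7.89 to 16.001) against 8.58%. Cells high in *Cxcl1*, *Cxcl2*, *Cxcl3* and *Il1b* made up 25 of the tumor cells, 9.58% (6.30 to 13.8) against 6.87%. Of these 3 programs, the share in the other tumor cells lay just below the counting interval for *Inhba* and within it for the other two. In the control library the shares among the chosen cells were 0.796% (0.164 to 2.31) against 1.86% of the others for *Inhba*, 0 of 377 cells (up to 0.974%) against 0.465% for *Spp1* and 2.12% (0.920 to 4.14) against 2.58% for the cytokine genes, and each share of the others lay within the interval. Cells high in *Ear1* and *Ear2* were 4.24% (2.44 to 6.80) of the chosen against 7.59% of the other control cells and 1.15% (0.238 to 3.32) against 3.13% in the tumor library. Cells high in the heat shock genes *Hspa1a*, *Hspa1b* and *Dnajb1* were 1.06% (0.290 to 2.69) against 1.91% and 4.98% (2.68 to 8.37) against 7.62%. Conversely, 4.99% of the tumor cells high in *Inhba* and 4.51% of those high in *Spp1* were chosen cells. Cells high in *Mki67* and *Top2a* were 4.51% (2.65 to 7.12) of the control cells against 7.40% of the others, and 3.07% against 3.21% in the tumor library. The 2 libraries shared 17 barcodes among filtered cells, of which 3 belonged to chosen cells and none to chosen cells of both libraries.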

How the data were processed

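The authors deposited UMI counts for each gene in each barcode without normalization, made with Cell Ranger from 10x Genomics 3′ reads. The submitters' processing notes name Cell Ranger 4.0.0, bcl2fastq 2.20 and build mm10, while the paper's methods name another Cell Ranger version. The control library held 8485 barcodes with 67847088 UMIs and the tumor library 9175 with 70738320. Of 32285 Ensembl identifiers 32158 were matched to a symbol. Hashtag reads were not used here.

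From the deposited counts, barcodes with at least 500 genes and at most 10% mitochondrial UMIs were kept. Scrublet's automatic threshold called 0 doublets, which is too few for this many cells, and none were removed. An alternative left out the 274 control and 410 tumor cells with the highest scores. Levels are CPM of summed UMIs, ratios carry exact conditional binomial intervals and shares exact binomial intervals, at 95%. Genes were tested with at least 20 CPM over the filtered cells of each library, without the score genes and, between chosen and other cells, without the 4 MHC class II genes, which the comparison of tumor with control kept. No count model and no p-value was used. Ratios were tested on simulated data.

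The cells, gene lists and comparisons were chosen with earlier results of these data known. Named genes are the score genes, list genes, the 15 highest and 15 lowest by the ratio nearer to 0 of both libraries, and the 10 highest and 10 lowest by tumor over control, ribosomal and mitochondrial genes left out of the ranked ones. Other genes are said to be singled out or come from the genes past 1.5-fold. Alternatives changed the share of cells taken, ranking, quality filter, MHC class II rule, thinning, doublets, score genes, scale, gene limit and fold limit. Promoter windows are from RefSeq on GRCm38.p6 and gene positions from GENCODE on GRCm38. Python 3.11.15, numpy 2.4.6, scipy 1.17.1, pandas 2.3.3, scanpy 1.11.5 and matplotlib 3.10.9 were used.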

Additional observations from a re-analysis of the deposited data

Results flagged for a closer look

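For 22 of 219 genes of the lists (10.05%), and for 117 of all 5454 genes tested (2.15%), the log2 ratio of the chosen over the other cells had opposite signs in the libraries, with both counting intervals clear of 0, and the difference between the libraries was not tested. In the sentences that follow the control value comes before the tumor value. Higher in the control and lower in the tumor library were the lysosomal and vesicle genes *Gpnmb* 0.20 and −0.34, *Lamp1* 0.066 and −0.13, *Ctsb* 0.18 and −0.10, *Ctsz* 0.15 and −0.10 and *Cd63* 0.35 and −0.11. The same held for *Prdx5* 0.081 and −0.16, *Apoe* 0.45 and −0.78, *Junb* 0.26 and −0.13 and *Bst2* 0.22 and −0.54. Lower in the control and higher in the tumor library were the cytokine and secreted factor genes *Cxcl1* −0.47 and 0.70, *Cxcl2* −0.29 and 0.31, *Il1rn* −0.33 and 0.15, *Spp1* −0.70 and 0.34 and *Inhba* −1.27 and 0.37. So were the AM markers *Car4* −0.90 and 0.73, *Krt79* −0.31 and 0.22, *Plet1* −0.11 and 0.17 and *Cidec* −0.30 and 0.22. The others of this kind were *Plin2* −0.084 and 0.092, *Ldha* −0.21 and 0.092, *Cd9* −0.16 and 0.036 and *Actb* −0.24 and 0.039.

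Among barcodes that did not pass the quality filter, which no comparison used, 172 of 2300 in the control library (7.48%) and 69 of 1509 in the tumor library (4.57%) lay at or over the limit of the score. Their median was 1002 and 1067 UMIs, and 2184 and 1423 of them exceeded the limit on mitochondrial UMIs.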

How the results depend on the processing

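Of 231 values of 14 results under other settings, 208 stayed within 1.5 times the reported value for counts or within its counting or rank interval for shares and medians, and the 23 that did not are given here; of 540 values of single genes 477 stayed within their intervals. The direction of the NRF2 targets, with medians of 0.66 to 1.23 in the control and 0.54 to 0.83 in the tumor library and 9 to 15 genes past 1.5-fold, held under every setting in which it was computed. All 6 ratios of left-out score genes stayed above 1.5-fold where they were computed, which did not include the settings with a gene left out of the score. The medians of the iron and heme lists, near 0, changed sign in 4 values: −0.07 for heme in the control library with the highest 2.5%, −0.01 for iron in it with *Hmox1* left out of the score, −0.0029 for heme in it with the other total and −0.0047 for iron in the tumor library with a limit of 50 CPM. The share of cells and the counts of genes follow the limits by construction. With 1 limit for both libraries, the gap between their shares is not fixed by construction, but it changed with the limit. With the highest 2.5% taken, the cells were 2.52% of the control and 2.17% of the tumor library, 38 genes were lower in both, and 91 were higher and 47 lower in tumor cells. With the highest 10% the shares were 13.4% and 5.96%, 22 genes were higher and 6 lower in both, and 9 were lower in tumor cells. Ranking within each library gave 4.38% and 4.85%, shares that this choice fixes at 5% less the MHC class II cells and that say nothing of the difference between the libraries, and 10 genes lower in tumor cells. The control share was 6.80% with MHC class II cells removed before ranking and 6.82% with them kept. Genes lower in both numbered 6 with thinned cells, 5 with *Hmox1* left out of the score, 4 with a limit of 50 CPM, 63 with one of 5 CPM and 3 at 2-fold, where 10 were higher. Genes lower in tumor cells numbered 36 with the mean of each cell's CPM and 29 with ribosomal, mitochondrial and score genes left out of the total; for these, the thinned cells and the score without *Hmox1* the cause was not tested. Without *Hmox1* in the score 300 of the 638 cells were chosen again. Leaving out cells high in *Apoe* and *S100a6* or under 3800 UMIs was added after seeing the data. No paired analysis was possible because each condition had 1 library.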
